A study of Homo sapiens with 8 samples.

Results

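The genes described here are 10 core components of the circadian clock, NR1D1, NR1D2, PER1, PER2, PER3, CRY1, CRY2, ARNTL, CLOCK and DBP, out of 55679 gene identifiers in the deposited count table. They were the rows whose symbol equals one of these names, all 10 were found, and all 10 passed the filter on low counts that left 17811 genes for the fits. They were chosen on their values in these libraries, so all their levels and differences are given as descriptions without a test. MDA-MB468 and BT549 are established lines of triple-negative breast cancer, a breast cancer with little or no estrogen receptor, progesterone receptor and HER2. Acetalax (oxyphenisatin acetate) is a former laxative that kills some of these lines. There were 8 RNA-seq libraries, 1 per condition and without replicates: parental cells of each line as control or after 1 μmol/L Acetalax for 6 hours, and CE (chronic exposure) cells of each line under the same pair of conditions. The CE cells had been grown in Acetalax up to 40 μmol/L and kept free of it for 2 weeks, and each line has 1 such culture, so CE and the history of that culture cannot be told apart. Neither the hour of harvest nor whether control dishes had their medium changed together with the treated ones is given in the sources used here, so time of day, fresh medium and condition cannot be told apart either.

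The circadian clock is a transcriptional feedback loop found in most cells. CLOCK and ARNTL (also named BMAL1) form a dimer that binds E-box sequences and switches on the PER and CRY genes, the REV-ERB genes NR1D1 and NR1D2, and DBP. PER and CRY proteins then inhibit the dimer, and the REV-ERB proteins repress ARNTL, which ROR proteins activate. DBP carries the rhythm to output genes through D-box sequences. PER1 and PER2 are also immediate targets of signals that reset the clock, such as cAMP, calcium, serum and glucocorticoids. In an unsynchronized culture the cells stand at different phases, so a bulk library averages over them, and fewer cells of a kind and less RNA per cell cannot be told apart in it.

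The 4 promoters below are those of the 3 members with the largest mean difference above zero after Acetalax (NR1D1, PER1 and CRY1) and of DBP, the member with the largest below it. ARNTL is added because it holds the ROR element on which the REV-ERB proteins act. Each runs 5′ to 3′ on the gene's strand, from 250 bases before the RefSeq start site to 50 bases after it (build GRCh38.p14), and capitals mark a match on either strand to the E-box CACGTG, its variant CACGTT, the D-box TTATGTAA or TTATGCAA, the ROR element core TAGGTCA, the short cAMP-response element TGACG or the AP-1 site TGACTCA.
NR1D1, chr17:40100540-40100839, minus strand: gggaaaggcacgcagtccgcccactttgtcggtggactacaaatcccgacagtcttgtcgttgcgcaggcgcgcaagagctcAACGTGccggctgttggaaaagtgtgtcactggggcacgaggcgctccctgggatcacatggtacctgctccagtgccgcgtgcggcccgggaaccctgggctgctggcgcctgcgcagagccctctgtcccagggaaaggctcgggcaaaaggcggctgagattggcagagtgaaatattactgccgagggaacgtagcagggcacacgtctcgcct
PER1, chr17:8152355-8152654, minus strand: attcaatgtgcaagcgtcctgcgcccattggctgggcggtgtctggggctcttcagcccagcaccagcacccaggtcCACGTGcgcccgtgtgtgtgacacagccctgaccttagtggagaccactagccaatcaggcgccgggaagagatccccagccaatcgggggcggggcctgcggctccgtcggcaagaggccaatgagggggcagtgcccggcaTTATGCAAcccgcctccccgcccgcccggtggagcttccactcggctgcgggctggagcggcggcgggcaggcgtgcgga
CRY1, chr12:107093500-107093799, minus strand: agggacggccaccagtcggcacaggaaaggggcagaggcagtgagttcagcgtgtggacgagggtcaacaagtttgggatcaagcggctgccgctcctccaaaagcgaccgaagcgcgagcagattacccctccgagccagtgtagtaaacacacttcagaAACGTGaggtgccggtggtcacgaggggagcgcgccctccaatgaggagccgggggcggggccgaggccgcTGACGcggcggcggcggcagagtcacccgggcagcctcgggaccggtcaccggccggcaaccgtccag
DBP, chr19:48637330-48637629, minus strand: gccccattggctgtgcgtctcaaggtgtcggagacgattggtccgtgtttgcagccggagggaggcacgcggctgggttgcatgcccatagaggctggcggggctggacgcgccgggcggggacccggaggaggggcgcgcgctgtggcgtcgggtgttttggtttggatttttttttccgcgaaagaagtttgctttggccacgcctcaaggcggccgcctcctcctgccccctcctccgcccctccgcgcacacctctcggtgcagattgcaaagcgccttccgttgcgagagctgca
ARNTL, chr11:13277540-13277839, plus strand: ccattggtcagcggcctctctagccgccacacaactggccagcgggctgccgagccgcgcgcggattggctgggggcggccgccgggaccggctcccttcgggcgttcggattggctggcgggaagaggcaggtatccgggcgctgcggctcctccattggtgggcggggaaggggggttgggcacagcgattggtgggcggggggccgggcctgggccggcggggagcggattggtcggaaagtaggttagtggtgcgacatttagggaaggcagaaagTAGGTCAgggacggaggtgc

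A promoter window was found for 10 of 10 members, ARNTL under the name BMAL1. The PER1 window held the E-box, starting 173 bases before the start site, which 7.26% of all 35116 windows hold, and a D-box 30 bases before it. The E-box variant was in the windows of 3 members, 168 bases before the start in NR1D1, 197 in PER2 and 89 in CRY1, against 5.34% of all windows. PER3 shared the D-box with PER1, 177 bases before its start, and 1.71% of all windows hold one. The ROR element core was in the ARNTL window only among the 10, starting 30 bases after the start, against 1.85% of all windows. The short element TGACG was in 5 windows (NR1D2, PER2, CRY1, CRY2 and CLOCK), against 24.6% of all windows, while the full element TGACGTCA (1.85% of all windows) and the AP-1 site (4.95%) were in 0 of the 10. The DBP window held none of these letters. In the genome build of the count table (hg19, searched as GRCh37) all 10 windows had 1 exact match each. Set against the GENCODE annotation lifted to GRCh37, the RefSeq start fell on the outermost start of the gene for 7 members. It fell inside the gene for PER1 (4102 bases), PER2 (1492 bases) and ARNTL (1138 bases). The gene bounds of the count table, quoted below, differ from GENCODE for some members, NR1D1 among them.

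The libraries held 42261122 to 54241728 counts each. Levels are in CPM, a count scaled to the size of its library, after TMM scaling in edgeR (a trimmed mean of log ratios), which adjusts each library for its RNA makeup. Its factor was lowest in BT549 CE cells after Acetalax, at 0.845. A log2 ratio is the difference of log2(CPM + 0.1) between 2 libraries, and its 95% interval (exact Clopper-Pearson, from the 2 counts) covers counting error only, not the spread between cultures. Ratios below are on this log2 scale, and 4 ratios in a row stand for MDA-MB468 parental, MDA-MB468 CE, BT549 parental and BT549 CE cells, in that order. The cell lines were checked by marker genes. The 5 epithelial markers summed to 4916 to 7228 CPM in the MDA-MB468 libraries and 6.07 to 90.6 CPM in the BT549 libraries, and the 5 mesenchymal markers to 14.0 to 54.4 and 3704 to 5928 CPM. Of 5 blood cell markers, 4 were under 1 CPM in all libraries, with CD3E and HBB at 0, and the fifth, CD14, was at 5.95 to 43.9 CPM in MDA-MB468. Of the 2 endothelial markers listed, VWF was at most 0.286 CPM and CDH5 reached 7.53 CPM in MDA-MB468 CE cells after Acetalax. Of the receptor genes, ERBB2 (HER2) was at 43.5 to 92.2 CPM and PGR (progesterone receptor) at most at 0.649 CPM. ESR1 (estrogen receptor) was at 3.42 to 4.84 CPM in MDA-MB468 and at most at 0.191 CPM in BT549.

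After Acetalax NR1D1, PER1 and CRY1 were 2.55-fold to 5.32-fold higher than in controls in 3 of the 4 backgrounds, MDA-MB468 CE cells being the exception, and DBP was 1.48-fold to 2.37-fold lower in all 4. In both parental backgrounds and in BT549 CE cells, 8 of the 10 members were higher after Acetalax and 2 lower. In MDA-MB468 CE cells 3 were higher and 7 lower. Of all genes tested, 45.7% to 48.2% were higher in a pair. The plot of levels in the 8 libraries shows each member.

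**Figure D1:**
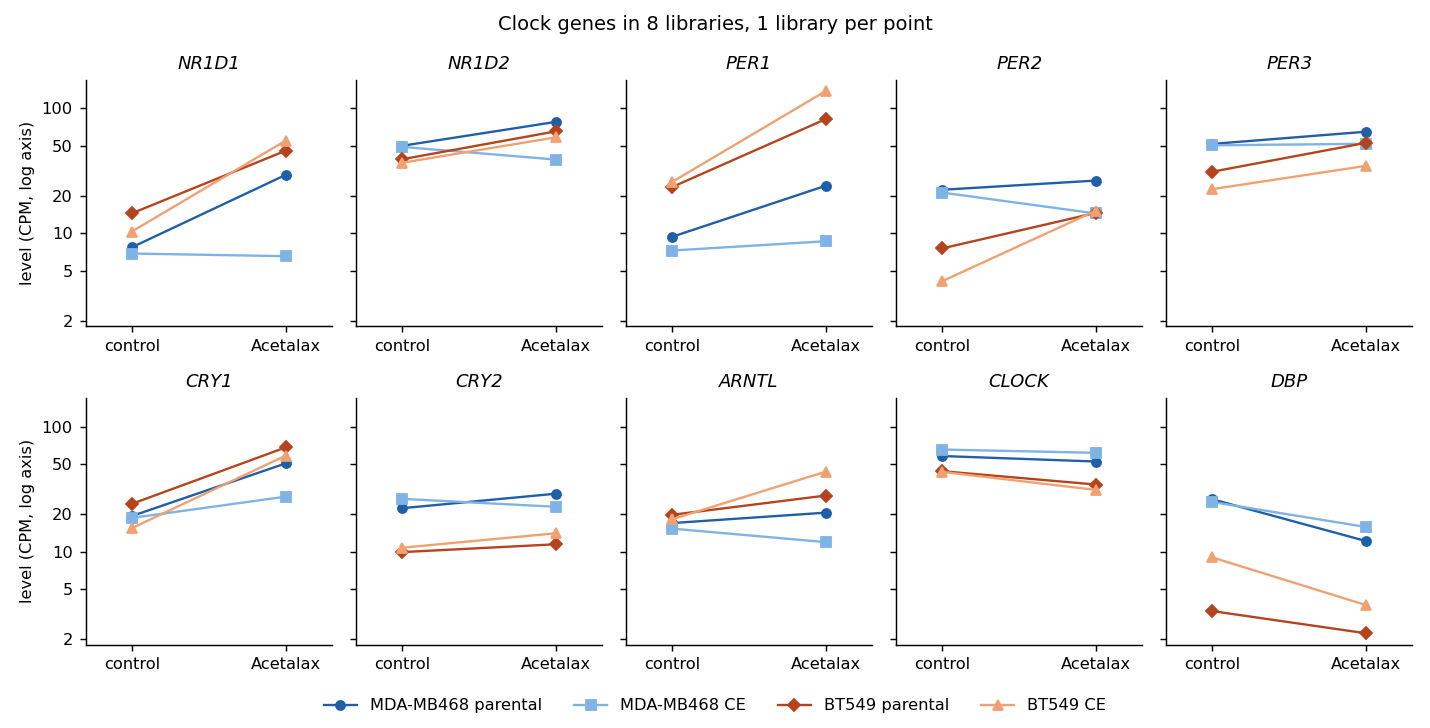
Level of each clock gene (CPM, log axis) in control and Acetalax-treated cells, 1 library per point, with a line joining the libraries of 1 background. NR1D1, PER1 and CRY1 are higher after Acetalax in 3 backgrounds by large steps, the MDA-MB468 CE line is nearly flat for NR1D1 (6.89 and 6.56 CPM), and DBP slopes down in all 4.

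In MDA-MB468 parental cells 3 members were at least 2-fold higher after Acetalax (5.46% of all genes) and 1 at least 2-fold lower (4.01%). In MDA-MB468 CE cells 0 were higher (2.71% of all genes) and 0 lower (3.05%) by that much. In BT549 parental cells 3 were higher (3.26%) and 0 lower (2.06%), and in BT549 CE cells 5 were higher (5.92%) and 1 lower (8.97%). By direction, 3 members (PER1, PER3 and CRY1) were higher in 4 of 4 pairs, as were 16.4% of all genes, and 2 (CLOCK and DBP) were lower in 4 of 4, as were 19.6%. Another 5 (NR1D1, NR1D2, PER2, CRY2 and ARNTL) were higher in the other 3 pairs and not in MDA-MB468 CE cells, a pattern that 6.2% of all genes had. The members were chosen from these values, so nothing is read from the counts.

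The REV-ERB genes encode nuclear receptors that repress ARNTL. NR1D1 (ENSG00000126368, chromosome 17, 38249040 to 38256978 on the minus strand of hg19, 8 exons after merging) had 403 counts in control and 1453 in Acetalax-treated MDA-MB468 parental cells, 337 and 332 in the CE cells of that line, 609 and 1880 in BT549 parental cells, and 540 and 2345 in BT549 CE cells. The 3 treated libraries other than MDA-MB468 CE stood above all 4 controls, and the treated MDA-MB468 CE library, at 6.56 CPM, stood beside its own control, the lowest, at 6.89 CPM. The log2 ratio was 1.91 (1.76 to 2.09) in MDA-MB468 parental, 1.66 (1.53 to 1.80) in BT549 parental and 2.40 (2.28 to 2.55) in BT549 CE cells, where it had rank 92 from the top among 17811 genes. In MDA-MB468 CE cells it was -0.07, and the interval from -0.29 to 0.15 lay wholly below the intervals of the other 3 pairs. The mean over the 4 pairs was 1.47 ± 1.07 (SD, n = 4 pairs). NR1D1 shares 473 exonic bases, 18.0% of its own, with THRA on the opposite strand, and the strand setting of the counting is not given. THRA had 425 to 1191 counts, and its mean ratio was -0.27 ± 0.27 (SD, n = 4 pairs), below zero in 3 of 4 pairs.

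NR1D2 (ENSG00000174738, chromosome 3, 23986751 to 24022109 on the plus strand), its paralogue, had smaller ratios than NR1D1 in the 3 pairs where both were higher. Its level went from 49.9 to 77.5 CPM in MDA-MB468 parental, 39.0 to 65.1 CPM in BT549 parental and 36.5 to 58.3 CPM in BT549 CE cells, ratios of 0.64, 0.74 and 0.67. In MDA-MB468 CE cells it went from 49.0 to 38.8 CPM, a ratio of -0.34 (-0.42 to -0.25). The 3 positive ratios were close to each other, and the MDA-MB468 CE ratio lay apart on the other side of zero.

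The PER genes encode repressors of the CLOCK-ARNTL dimer. PER1 (ENSG00000179094, chromosome 17, 8043790 to 8059824 on the minus strand, 22 merged exons) had 489 and 1192 counts in control and treated MDA-MB468 parental cells, 356 and 437 in the CE cells of that line, 988 and 3368 in BT549 parental cells, and 1345 and 5850 in BT549 CE cells. The treated BT549 CE library held the highest PER1 level of the 8, at 137.0 CPM, 5.32-fold its control. Log2 ratios were 1.35 (1.20 to 1.51), 0.24 (0.04 to 0.45), 1.80 (1.70 to 1.91) and 2.41 (2.33 to 2.50), with a mean of 1.45 ± 0.92 (SD, n = 4 pairs). PER1 was above its control in every pair, though in MDA-MB468 CE cells by 1.18-fold.

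PER2 (ENSG00000132326, chromosome 2, 239152679 to 239198743 on the minus strand) had 1162 and 1310 counts in MDA-MB468 parental cells, 1034 and 728 in the CE cells of that line, 320 and 600 in BT549 parental cells and 217 and 649 in BT549 CE cells. Its ratios were 0.24, -0.55, 0.94 and 1.85, so it was higher after Acetalax by the larger steps in BT549, where its control level was the lower. PER3 (ENSG00000049246, chromosome 1, 7844380 to 7905237 on the plus strand), the third PER gene, had ratios of 0.32, 0.04, 0.77 and 0.62. The interval in MDA-MB468 CE cells, from -0.04 to 0.12, holds zero, and that ratio turned negative with scaling by total counts, by protein-coding counts and on the log2(FPKM + 1) scale. No other of the 40 member ratios changed sign under these scalings or under the other pseudocounts tried. PER3 shares 868 exonic bases with UTS2 on the opposite strand, which had 0 to 3 counts per library.

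The CRY genes encode the partners of PER in that repression. CRY1 (ENSG00000008405, chromosome 12, 107385142 to 107487607 on the minus strand, 14 merged exons) went from 1006 to 2522 counts in MDA-MB468 parental cells, 911 to 1393 in MDA-MB468 CE cells, 1019 to 2807 in BT549 parental cells and 807 to 2502 in BT549 CE cells. The 4 treated libraries all lay above the 4 controls. Ratios were 1.39 (1.29 to 1.51), 0.56 (0.44 to 0.69), 1.50 (1.40 to 1.60) and 1.92 (1.81 to 2.04), with a mean of 1.34 ± 0.57 (SD, n = 4 pairs), and in MDA-MB468 CE cells CRY1 had the largest ratio of the 10 members. CRY2 (ENSG00000121671, chromosome 11, 45868669 to 45904798 on the plus strand), its paralogue, differed little: its ratios were 0.38, -0.21, 0.21 and 0.38 and its mean 0.19 ± 0.28 (SD, n = 4 pairs).

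The activators ARNTL and CLOCK differed from each other. ARNTL (ENSG00000133794, chromosome 11, 13298199 to 13408813 on the plus strand), the gene that REV-ERB represses, had ratios of 0.28, -0.36, 0.51 and 1.26, and in BT549 CE cells it went from 18.2 to 43.7 CPM in the same pair in which NR1D1 had its largest ratio. CLOCK (ENSG00000134852, chromosome 4, 56294070 to 56413305 on the minus strand) was lower after Acetalax in 4 of 4 pairs by small steps, with ratios of -0.15, -0.09, -0.35 and -0.48 and all intervals below zero. It had from 1332 to 3205 counts, and its mean ratio was -0.27 ± 0.18 (SD, n = 4 pairs).

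DBP (ENSG00000105516, chromosome 19, 49133287 to 49140695 on the minus strand) was the member with the largest difference below zero, while its fellow E-box targets NR1D1 and PER1 were higher. It went from 1371 to 604 counts in MDA-MB468 parental cells, 1221 to 797 in MDA-MB468 CE cells, 142 to 92 in BT549 parental cells and 472 to 160 in BT549 CE cells. Within each line the treated libraries lay below the controls, apart from BT549, where the treated CE library at 3.75 CPM lay above the parental control at 3.36 CPM. Ratios were -1.10 (-1.25 to -0.97), -0.66 (-0.80 to -0.53), -0.57 (-0.98 to -0.20) and -1.24 (-1.53 to -1.01), and the mean was -0.89 ± 0.33 (SD, n = 4 pairs). Unlike NR1D1, DBP kept its direction in MDA-MB468 CE cells. DBP shares 661 exonic bases, 10.2% of its own, with SPHK2 on the opposite strand, which had 427 to 976 counts and a mean ratio of -0.39 ± 0.29 (SD, n = 4 pairs), below zero in 3 of 4 pairs and 0.04 in MDA-MB468 CE cells. The part of these antisense partners in the counts was not tested.

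**Figure D2:**
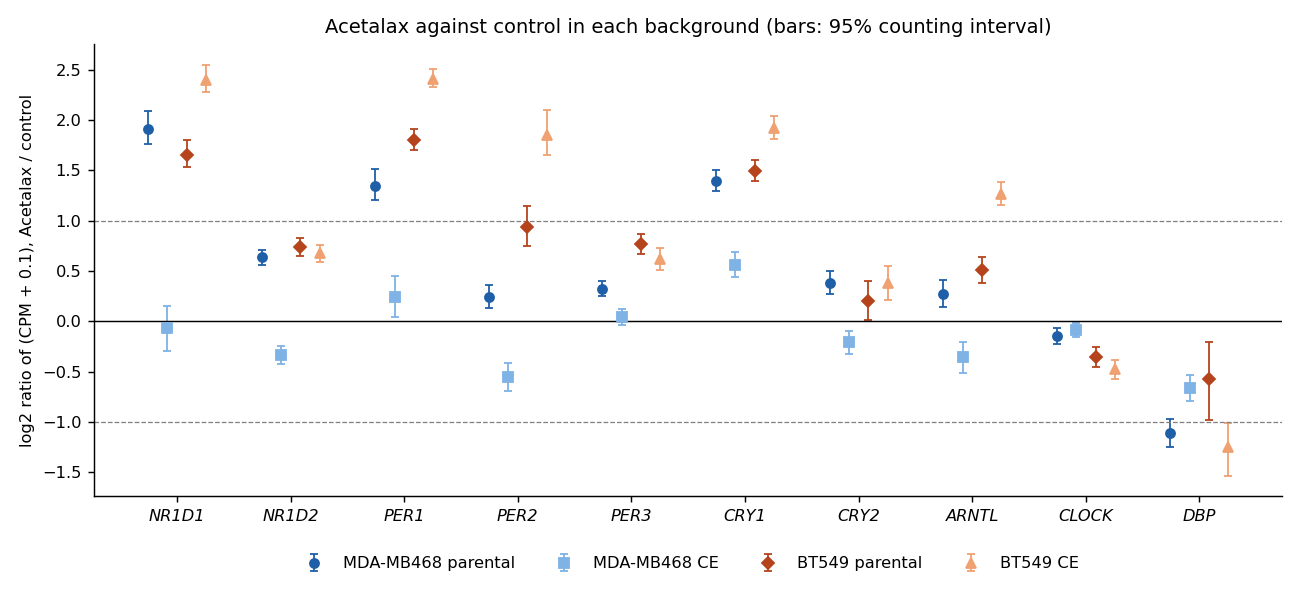
Log2 ratio of CPM + 0.1 after Acetalax against control for each clock gene in the 4 backgrounds, with bars for the 95% counting interval and dashed lines at 2-fold. The MDA-MB468 CE points lie near zero or below it except CRY1 (0.56) and PER1 (0.24), and the DBP points lie below zero in all 4 pairs.

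The smaller member ratios in MDA-MB468 CE cells stood beside a smaller response of all genes. The median size of the log2 ratio over all genes was 0.315 in MDA-MB468 parental, 0.24 in MDA-MB468 CE, 0.266 in BT549 parental and 0.392 in BT549 CE cells, and over the 10 members it was 0.509, 0.289, 0.753 and 1.25. The order of the pairs thus was not the same for both: BT549 parental cells had a smaller median than MDA-MB468 parental cells over all genes and a larger one over the members. Whether the general response takes part in the members' ratios was not tested.

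CE and parental cells differed little in the clock genes without drug in MDA-MB468, and more in BT549, and so did all genes. Of all genes in MDA-MB468 controls, 2.67% were at least 2-fold higher in CE than in parental cells (0 members) and 2.43% lower (0 members). Of all genes in BT549 controls, 7.96% were higher (1 member) and 5.55% lower (0 members). In control MDA-MB468 cells the 10 ratios of CE to parental cells lay between -0.36 (PER1) and 0.25 (CRY2) on the log2 scale. In control BT549 cells they lay between -0.85 (PER2) and 1.40 (DBP), where DBP went from 142 counts in parental to 472 in CE cells, a ratio of 1.40 (1.15 to 1.70). CRY1 (-0.64), NR1D1 (-0.48) and PER3 (-0.46) were lower in BT549 CE controls, and ARNTL, CLOCK, NR1D2 and CRY2 had intervals that hold zero. Cell type markers moved between these BT549 controls as well. Of the 5 epithelial markers 4 were higher in CE than in parental controls, KRT8 at 35.6 against 1.25 CPM and KRT18 at 49.6 against 6.67 CPM among them, and EPCAM was at 0.0382 against 0.189 CPM. Of the 5 mesenchymal markers SPARC was higher, at 3569 against 438.7 CPM, and VIM (894.6 against 1327 CPM), CDH2, ZEB1 and FN1 were lower. The part of these markers in the differences of the clock genes was not tested.

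After Acetalax the difference of the members between CE and parental cells was widest in MDA-MB468, while that of all genes was wider in BT549. In treated MDA-MB468 cells 3.12% of all genes were at least 2-fold higher in CE cells (0 members) and 3.73% lower (2 members). The shares in treated BT549 cells were 7.03% (0 members) and 7.59% (0 members). NR1D1 was at 6.56 CPM in treated CE cells against 29.3 CPM in treated parental cells, a log2 ratio of -2.14 (-2.33 to -1.98), PER1 had a ratio of -1.46 (-1.64 to -1.32) and NR1D2 one of -0.997 (-1.08 to -0.92). CRY1, PER2 and ARNTL followed at -0.88, -0.87 and -0.78, while CLOCK (0.23) and DBP (0.37) were higher in the treated CE cells. These ratios share the treated MDA-MB468 CE library with the Acetalax ratios above and repeat what that library shows. In treated BT549 cells the order was different. PER1 (0.74), DBP (0.72), ARNTL (0.63), CRY2 (0.29) and NR1D1 (0.27) were higher in CE than in parental cells, PER3 (-0.61), CRY1 (-0.22), NR1D2 (-0.16) and CLOCK (-0.14) were lower, and the interval of PER2 held zero.

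Over the 4 pairs, 3 members (NR1D2, PER3 and CRY1) were lower in CE cells each time, as were 11.7% of all genes, and 0 members were higher each time, as were 12.7%. The mean ratio was -0.45 ± 0.38 (SD, n = 4 pairs) for CRY1, -0.36 ± 0.24 for PER3 and -0.32 ± 0.46 for NR1D2. The treated and control pairs of a line come from the same 2 cultures, parental and CE, so these 4 pairs stand for 2 lines.

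**Figure D3:**
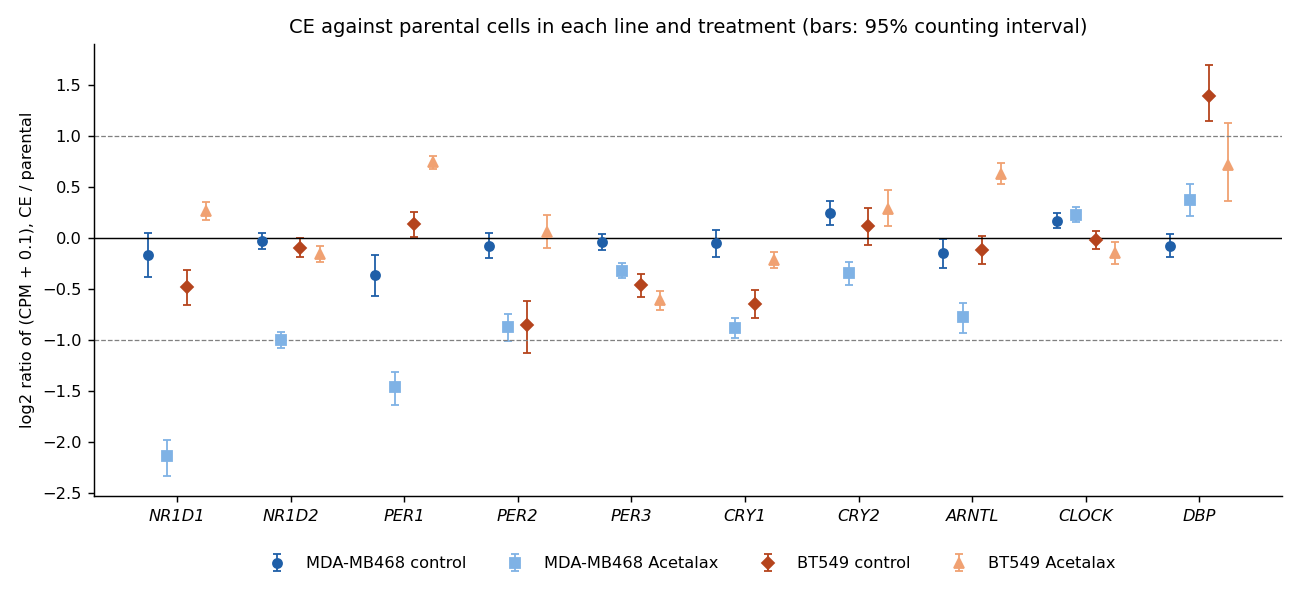
Log2 ratio of CPM + 0.1 in CE against parental cells for each clock gene, in control and Acetalax-treated cells of both lines, with bars for the 95% counting interval and dashed lines at 2-fold. The MDA-MB468 control points lie within 0.36 of zero, the MDA-MB468 Acetalax points reach -2.14 for NR1D1, and DBP in BT549 controls stands at 1.40.

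The levels of the clock genes also stood apart between the lines, in both directions. The 4 differences of a gene, BT549 minus MDA-MB468 on the log2 scale, are given for parental control, parental Acetalax, CE control and CE Acetalax cells in that order. They are descriptions, since the levels in all 8 libraries were known when the members were chosen. The share of all genes with the same direction in 4 of 4 conditions was not counted, so nothing is read from such counts. PER1 was higher in BT549 in 4 of 4 conditions, by 1.31, 1.76, 1.80 and 3.97, with a mean of 2.21 ± 1.19 (SD, n = 4 conditions). DBP was lower there in 4 of 4, with differences of -2.93, -2.39, -1.46 and -2.04 and a mean of -2.21 ± 0.62. It had 92 to 472 counts in the BT549 libraries against 604 to 1371 in MDA-MB468, with no overlap.

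CRY2, CLOCK and PER3 were also lower in BT549 in 4 of 4 conditions. The differences were -1.16, -1.33, -1.29 and -0.70 for CRY2, -0.40, -0.61, -0.59 and -0.98 for CLOCK and -0.74, -0.29, -1.16 and -0.58 for PER3. PER2 was lower in 3 of 4 conditions, with differences of -2.32 to -0.85, and had near-equal levels in treated CE cells (15.2 and 14.4 CPM).

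NR1D1 and ARNTL were higher in BT549 in 4 of 4 conditions, both with 1 condition far above the others. NR1D1 had a difference of 3.05 in treated CE cells against 0.57 to 0.89 in the other conditions, and ARNTL one of 1.86 there against 0.22 to 0.45. CRY1 had differences of 0.32, 0.42, -0.27 and 1.09, and NR1D2 of -0.36, -0.25, -0.42 and 0.59, so both changed sign among the conditions. The treated MDA-MB468 CE library enters the differences of treated CE cells, and for 7 of the 10 members (not PER3, CLOCK and DBP) these were the highest of the 4. The share of all genes with that pattern was not counted either, and nothing is read from it.

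**Figure D4:**
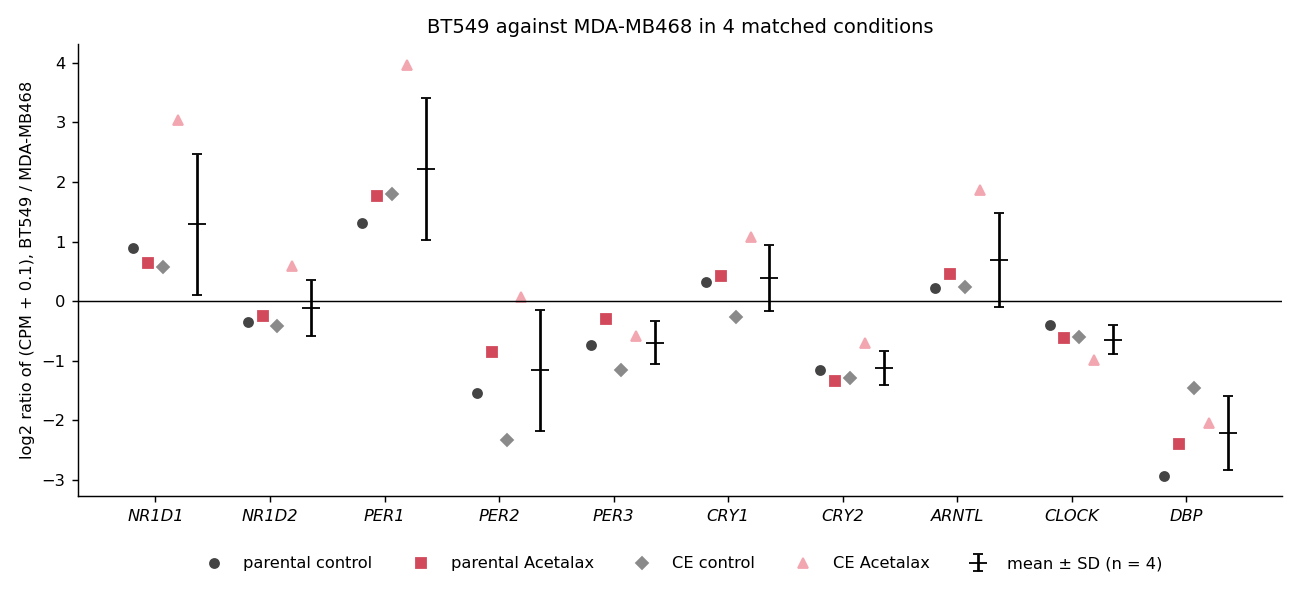
Log2 ratio of CPM + 0.1 in BT549 against MDA-MB468 for each clock gene in the 4 matched conditions, with the mean and SD of the 4 points. All 4 points of PER1 lie above zero and all 4 of DBP, CRY2, CLOCK and PER3 below it, while treated CE cells give the highest point for NR1D1 (3.05) and PER1 (3.97).

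Compared per length of merged exons (FPKM, a count scaled by exon length and library total), the order of the members differed between the lines. In BT549 the highest mean levels over 4 libraries were those of NR1D1, 10.8 FPKM (range 3.79 to 17.6), PER1, 8.62 FPKM (3.34 to 16.5), CRY1, 8.00 FPKM (3.11 to 13.5), and NR1D2, 7.99 FPKM (6.09 to 10.7). PER3, ARNTL, CLOCK, CRY2 and PER2 followed, and DBP was lowest at 0.669 FPKM (0.326 to 1.34). CLOCK (2.28 to 3.82 FPKM) and CRY2 (1.60 to 1.91 FPKM) were the neighbours in this order whose ranges did not overlap. In MDA-MB468 NR1D2 led with 9.86 FPKM (7.13 to 13.7), followed by PER3, CRY1, CLOCK, NR1D1, CRY2, DBP at 3.28 FPKM (1.92 to 4.35), PER2 and ARNTL, and PER1 was lowest with 1.85 FPKM (1.15 to 3.51). There the ranges of all neighbours overlapped. These means pool control and treated libraries. In the controls alone NR1D2 led in both lines, with 6.73 and 6.09 FPKM in BT549 parental and CE cells and 9.25 and 9.37 FPKM in those of MDA-MB468, and NR1D1 stood at 5.48 and 3.79 and at 3.15 and 2.90 FPKM.

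The genes whose level was most like that of NR1D1 over the 8 libraries, by Pearson's r of log2 CPM among the 11100 genes that averaged 5 CPM or more, were HCFC1 (r = 0.996), ATAD5 (0.983), YY1AP1 (0.982), ETNK1 (0.979) and KBTBD2 (0.974). Among the members PER1 came first (r = 0.936, rank 60), then ARNTL (0.912, rank 137) and CRY1 (0.898, rank 188), while CLOCK (-0.852) and DBP (-0.770) ran opposite to it. The genes most like DBP were OMA1 (0.996), BCKDHB (0.996), EIF2AK1 (0.994), BBS2 (0.993) and TMEM106B (0.993), and among the members CLOCK (0.897) and CRY2 (0.800). These values are descriptions over 8 libraries that share line, history and treatment.

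Around the 10 members, 46 further clock genes were listed by role and 43 of them were tested, with RORB, FBXL21 and SIK1 under the filter on low counts. This list too was drawn up with earlier results of these data known. Its p-values, here and below, thus describe the genes and are no independent test. After Acetalax 4 rose and 0 fell over the 4 backgrounds (edgeR, adjusted p under 0.05, the rule that 5.16% of all genes passed). The median log2 change was 0.08 over the list and -0.02 over all genes. At an unadjusted p under 0.05 in edgeR there were 19 of the 43, and 5188 of all 17811 genes. DESeq2 called 13 at an adjusted p under 0.05, and 2678 of the 16264 genes to which it gave an adjusted p. All 4 edgeR calls were lost when the MDA-MB468 parental pair was left out, with adjusted p from 0.185 to 0.189, without the MDA-MB468 CE pair (0.0507 to 0.0750), without the BT549 CE pair (0.0842 to 0.132) and in the fit without a term for each background (0.113 to 0.134). The 4 calls were also lost in the edgeR fit with separate terms for parental and CE cells, averaged (0.117 to 0.124). NPAS2, CSNK1E and SIRT1 lost theirs without the BT549 parental pair as well (0.0595 to 0.103), and CSNK1E with scaling by total counts (0.0515).

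Among the activators and their paralogues, NPAS2, which can take the place of CLOCK, rose by 1.86 (SE 0.33, edgeR adjusted p = 0.0400). It went from 404 to 2381 counts in MDA-MB468 parental and from 508 to 2009 in MDA-MB468 CE cells, and had 6 and 8 counts in BT549 parental and 21 and 30 in BT549 CE cells. Its counts thus were at most 30 in the BT549 libraries. ARNTL2, the paralogue of ARNTL, had ratios of 1.22, 1.26, 0.03 and 0.88 and an edgeR adjusted p of 0.0558. RORA, which encodes an activator of ARNTL, had 3 to 51 counts and an adjusted p of 0.963.

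The E-box repressors BHLHE40, BHLHE41 and CIART and the D-box factors TEF, HLF and NFIL3 had 0 of 6 edgeR calls, with 2 at an unadjusted p under 0.05 and 2 called by DESeq2. HLF, the relative of DBP, had ratios of -1.16, -0.57, -0.45 and -1.29, below zero in 4 of 4 pairs (edgeR adjusted p = 0.0557), and TEF, the third of these relatives, had a change of 0.08 (0.741). CIART had ratios of 0.47, 0.02, 1.10 and 0.79 (0.0938). NFIL3, which opposes DBP at D-boxes, had ratios of -0.48 and -0.77 in MDA-MB468 parental and CE cells and of 0.28 and 0.64 in BT549 parental and CE cells.

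Of 8 genes of PER and CRY turnover, CSNK1E, a kinase that marks PER for degradation, rose by 0.61 (SE 0.12, edgeR adjusted p = 0.0429) and the others did not pass. Of 12 cofactors, SIRT1, a deacetylase, rose by 0.68 (SE 0.13, adjusted p = 0.0429), from 2176 to 3482 and 2237 to 2695 counts in MDA-MB468 parental and CE cells and from 3235 to 5345 and 3369 to 5435 in BT549 parental and CE cells. Of 10 genes of resetting inputs, SRF, the serum response factor, rose by 1.06 (SE 0.18, edgeR adjusted p = 0.0394), with ratios of 1.64, 0.80, 0.55 and 1.26. CREB1, which carries the cAMP signal, had ratios of 0.61, 0.21, 0.48 and 1.34 (adjusted p = 0.0687), and NR3C1, the glucocorticoid receptor, of 1.24, 0.43, -0.06 and 0.58 (0.116). Of the 4 output genes 0 passed (1 at an unadjusted p under 0.05, DESeq2 0).

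TSC22D3, a gene that glucocorticoids induce, was the 1 gene of the list that passed the edgeR test for a difference of response between the lines. It went from 11162 to 3062 counts in MDA-MB468 parental and 6815 to 1209 in MDA-MB468 CE cells, against 192 to 186 in BT549 parental and 174 to 117 in BT549 CE cells. The difference of the responses, BT549 minus MDA-MB468, was 2.03 (SE 0.28, edgeR adjusted p = 0.0341), in a test that 1.79% of all genes passed. DESeq2 called 4 of the 43, and 926 of the 14103 genes to which it gave an adjusted p. In edgeR 12 of the 43 were at an unadjusted p under 0.05, and 3342 of all 17811 genes. NFIL3 came next to the threshold, with a difference of 1.10 (SE 0.21, edgeR adjusted p = 0.0506). With the MDA-MB468 CE pair left out, the TSC22D3 difference was 1.66 and no longer passed, in a fit with 1 MDA-MB468 pair. FKBP5, another glucocorticoid-induced gene, had ratios of 0.15, 0.11, 0.11 and -0.42. It had only 13 and 14 counts in control and treated BT549 parental cells, against 1546 and 940 in BT549 CE cells. In MDA-MB468 its counts were 4354 and 4597 in parental and 2839 and 3176 in CE cells. For a difference of response between CE and parental cells 0 of the 43 passed (edgeR, 0 at an unadjusted p under 0.05, DESeq2 0), in a test that 0.0% of all genes passed, with 70 of 17811 at an unadjusted p under 0.05.

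Between CE and parental cells 0 of the 43 passed (edgeR, 7 at an unadjusted p under 0.05, DESeq2 1), where 0.0618% of all genes did. Of all 17811 genes 2542 were at an unadjusted p under 0.05 in edgeR, and DESeq2 called 925 of 16985. Between the lines 25 of the 43 passed, 13 higher and 12 lower in BT549, against the 57.1% of all genes. The conditions of a line come from its parental culture and the CE culture made from it. An SE between the lines thus covers the spread over conditions, not between independent cultures. ARNTL2 was higher in BT549 by 2.07 (SE 0.35, edgeR adjusted p = 0.00315) and NR3C1 by 1.93 (SE 0.29, adjusted p = 0.00196), and TEF, with a difference of -1.76 (SE 0.17, adjusted p = 0.000392), and HLF, with -1.22 (SE 0.38, adjusted p = 0.0334), were lower there as DBP was.

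**Figure D5:**
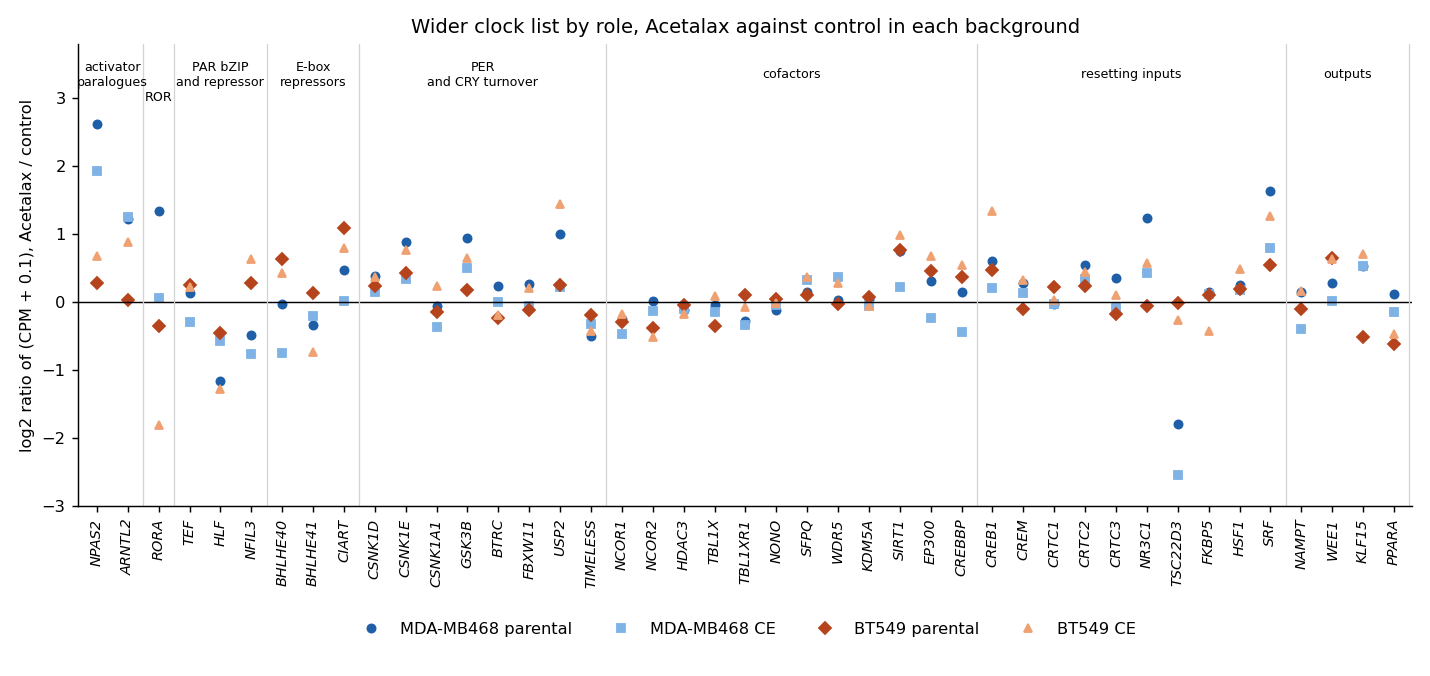
Log2 ratio of CPM + 0.1 after Acetalax against control in the 4 backgrounds for the 43 further clock genes tested, grouped by role. NPAS2 stands at 2.62 and 1.93 in MDA-MB468 parental and CE cells, TSC22D3 stands at -2.54 in MDA-MB468 CE cells and at -0.01 in BT549 parental cells, and most other genes lie within 1 of zero.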

How the data were processed

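Libraries of 8 conditions were made from polyadenylated RNA with a strand-specific kit and sequenced as paired ends. The authors aligned reads to hg19 with STAR (version 2.7.11b in the submitters' processing notes), counted them per gene with GeneCounts, and deposited these raw counts without normalization. The study's methods name an earlier STAR version. The strand column and the annotation are not given in the sources used here. The table holds 58154 rows for 55679 identifiers, each kept 1 time (1392 were repeated, 3 of them with differing counts, and PER1 with equal ones). Depth was 42261122 to 54241728 counts (median 48064282). Conditions came from the labels, doses and times from the study's methods.

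CPM used TMM factors, and a pseudocount of 0.1 CPM entered log2 ratios, with exact Clopper-Pearson intervals (95%). FPKM used the total count and merged GENCODE exon lengths (GENCODE lifted to GRCh37). edgeR 4.0.16 in R 4.3.3 fitted quasi-likelihood models to genes passing filterByExpr (minimum count 10), with an intercept for each background and a term for Acetalax, and likewise for line and for CE (3 residual degrees of freedom each), or with a difference of responses (2 degrees of freedom). p-values were adjusted by Benjamini-Hochberg over all 17811 genes (threshold 0.05), and a standard error is the log2 change divided by the root of its F statistic. Alternatives were other scalings, pseudocounts and filters, DESeq2 1.42.0, fits without a background term and leaving out each pair.

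The members and lists were chosen with earlier results of these data known. Named are the 10 members, genes that overlap them on the opposite strand, the wider clock list and the 5 genes most like NR1D1 and DBP. Members were described without a test, also between the lines, where a test had been planned, since the choice of members drew on their levels in all 8 libraries. Promoter windows are RefSeq sequences. Protein sequences were not used here. Some genes of the wider list are not reported here.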

Additional observations from a re-analysis of the deposited data

Results flagged for a closer look

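NR1D2 was marked 2 times because 1 pair lay far from the other 3. Its log2 ratio after Acetalax was -0.335 in MDA-MB468 CE cells against 0.64 to 0.74 in the other pairs, and its ratio of CE to parental cells was -0.997 after Acetalax in MDA-MB468 against -0.16 to -0.03 in the other pairs. Both values rest on the treated MDA-MB468 CE library, with 1963 counts. With independent groups chance would mark about 1 in 20 in this way, and 20 groups of 4 pairs were examined for the members. These groups share libraries, and the members were chosen on these values. The marks are thus descriptions, and that rate is no yardstick for them.

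TSC22D3 was marked because its response to Acetalax differed between the lines, by 2.028 on the log2 scale (edgeR, adjusted p = 0.0341). The ratios were -1.79 and -2.54 in MDA-MB468 parental and CE cells and -0.01 and -0.27 in BT549 parental and CE cells, and its level in the BT549 libraries was 2.74 to 4.54 CPM against 23.9 to 213.8 CPM in MDA-MB468.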

How the results depend on the processing

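With 1 library per condition, every test took its error from how a difference varied over 4 pairs of 2 lines, and many counts of calls moved with the setting, though not that between the lines. Acetalax against control gave 919 genes (493 higher, 426 lower), 2678 with DESeq2, 3585 when every gene with at least 1 count was tested, 0 with no replicate block (no term for the background) and 0 with separate terms for parental and CE cells. Leaving out 1 pair gave 0 to 276: 0 without MDA-MB468 parental, 14 without MDA-MB468 CE, 18 without BT549 CE and 276 without BT549 parental cells. CE against parental cells gave 11 genes, 925 with DESeq2, 446 on every gene with a count, 41 with no replicate block, and 0 to 2 when a pair was left out (2 without MDA-MB468 control, 0 without each of the others). The difference of responses between the lines gave 318 genes, 926 with DESeq2, 1632 on every gene with a count, and 16 to 715 when a pair was left out (16 without MDA-MB468 parental, 71 without MDA-MB468 CE, 187 without BT549 CE and 715 without BT549 parental cells). The difference of responses between CE and parental cells gave 0 genes, and 3 on every gene with a count. BT549 against MDA-MB468 gave 10167 genes, and 8454 to 12115 over all its alternatives. The cause of these shifts was not tested, beyond fewer libraries or more genes tested where the setting says so.

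Of the 40 member ratios, 13 were at least 1 in size, 8 on the log2(FPKM + 1) scale, and 7 to 13 when a pair was left out, 7 of 30 without BT549 CE cells. Scaling by total counts moved the median of all genes to -0.12 after Acetalax, from -0.02, with 281 genes called higher and 526 lower, and to -0.18 between the lines, from 0.01, with 4080 higher and 5925 lower against 5008 and 5159.

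No paired analysis by replicate number was possible because every library has replicate number 1. The precision of single ratios is limited by counting in BT549 for DBP, with 92 counts at the lowest, and by the lack of replicate cultures throughout.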
